A study of Homo sapiens with 9 samples.

Results

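The comparison described here set HaCaT cells treated with the triterpenoid CDDO-Me at 250 nM against cells given 1% DMSO, the vehicle, after 14 h. HaCaT is an immortalised human keratinocyte line, and CDDO-Me is also known as bardoxolone methyl. The comparison covered 6 of the 9 RNA-seq libraries of the study, 3 for each treatment, and all 58676 genes of the deposited count table, of which 15773 had enough reads to be tested. The remaining 3 libraries came from cells treated with another compound, PRL-295, at 10 µM for 14 h, and entered only an alternative fit of all 9 libraries. No source used here says whether the CDDO-Me cultures also held DMSO. Nor is it given whether cultures were separate within a group, so each p-value measures the spread between libraries, which may be technical.

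CDDO-Me is an electrophile that modifies cysteines of KEAP1, the adaptor that marks the transcription factor NRF2 for degradation. Freed NRF2 enters the nucleus and, with a small MAF protein, binds antioxidant response elements in genes of glutathione synthesis, quinone detoxification and heme breakdown. Triterpenoids of this kind are also known to bind other cysteine-bearing proteins, including kinases of the NF-kB and JAK/STAT pathways. Basal keratinocytes are anchored to laminin-332 by hemidesmosomes and carry the keratins KRT5 and KRT14, and retinoic acid, made from retinol, is a known regulator of which keratins these cells express.

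Each library's level is given as CPM, the gene's counts scaled to the counted reads of the library. A gene was called when its Benjamini-Hochberg adjusted p in the edgeR quasi-likelihood test was under 0.05. Of the 15773 genes tested, 1231 were called (7.80%), 697 of them higher (4.42%) and 534 lower (3.39%) with CDDO-Me. At least a 2-fold change was reached by 359 of the higher and 145 of the lower genes, and 3945 genes had an unadjusted p under 0.05. The CPM of the 2 groups did not overlap for any of the 1231 called genes, so a lack of overlap adds nothing to a call. Uncalled genes could be free of overlap too: in the DNA replication list 17 of 35 tested genes were, and 5 were called. The share of all tested genes without overlap is not given here. The median log2 fold change over all tested genes was 0.01.

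**Figure D1:**
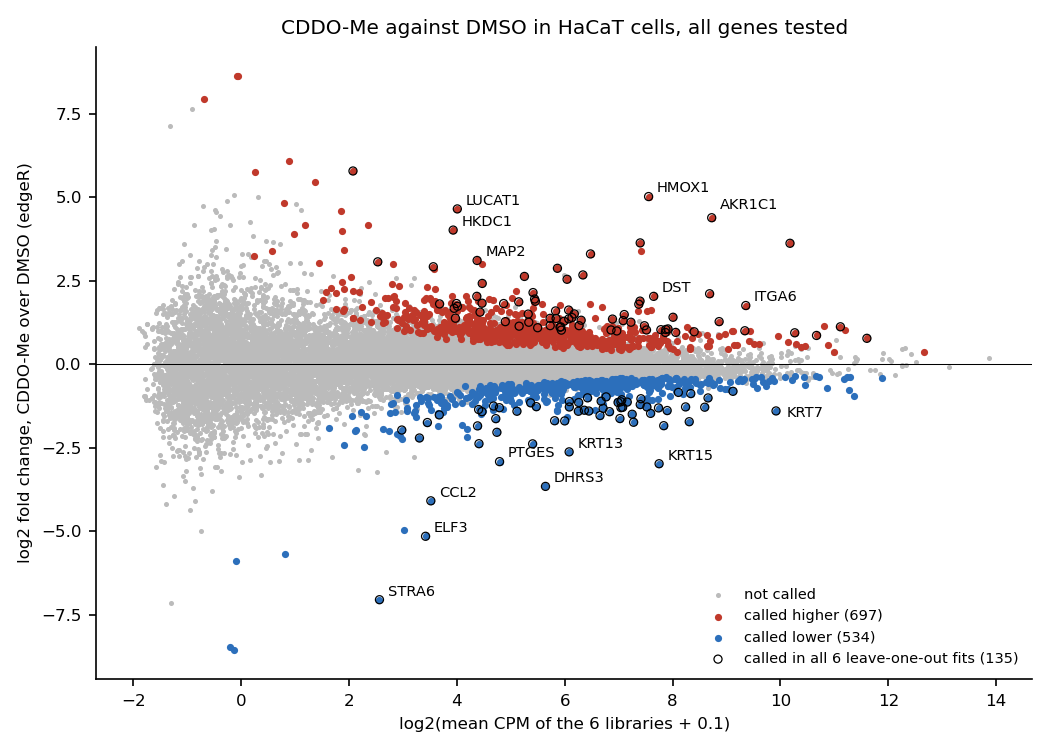
Each point is 1 of the 15773 tested genes, with the log2 of its mean CPM over the 6 libraries plus 0.1 on the x axis and its edgeR log2 fold change of CDDO-Me over DMSO on the y axis. Red and blue points are the 697 genes called higher and the 534 called lower, and circles mark the 135 that were also called whichever library was left out; HMOX1 and AKR1C1 stand at the top and STRA6, ELF3, CCL2 and DHRS3 at the bottom.

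The libraries differed in ways that bear on these counts. CDDO-Me 1 held 371 genes with 1 to 10 counts, against 1951 to 7692 in the other 5 libraries, and 2083 tested genes had no count in it, against 26 to 515. Of these, 840 had at least 10 counts in each of the other 5 libraries. Whether low counts were removed from CDDO-Me 1 before deposit is not given in the sources used here, so a 0 in that library may not be an absence of reads. It was set apart from all others on the first principal component, which took 55.4% of the variance. Without CDDO-Me 1, 2147 genes were called higher (13.0% of 16575 tested) and 1430 lower (8.63%), and all 1231 calls of the full comparison kept their direction and their call. Counts of list members called without CDDO-Me 1 are to be read against these 13.0% and 8.63%, and those with all 6 libraries against 4.42% higher and 3.39% lower. Left out in turn, DMSO 1, 2 and 3 gave 206, 146 and 218 called genes, and CDDO-Me 2 and 3 gave 693 and 423. A core of 135 genes, 74 higher and 61 lower, was called in all 6 of these fits. Of the core, 135 were also called by DESeq2 and 125 after the correction for GC content described next.

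The median GC content was 41.9% over the genes called higher, 57.8% over those called lower and 49.8% over all tested genes. Over the tested genes, a library's departure from the 6-library mean correlated with GC content at 0.271, 0.213 and 0.242 in DMSO 1 to 3 and at -0.0149, -0.558 and -0.165 in CDDO-Me 1 to 3. The GC trend thus moved with the treatment, and the part of each call it carries cannot be told apart from the treatment. A correction does not separate them either. The one used here was fitted to each library without regard to group, so it also removes any effect of treatment that follows GC content or gene length. When GC content and gene length were corrected for in each library, 470 genes were called, 315 higher (2.00%) and 155 lower (0.983%), and 381 of the 1231 calls remained. The share of calls that were higher was 56.6% without the correction and 67.0% with it. A gene named as called below was in the core and kept its call with the correction unless its sentence or the next one says otherwise. Genes of the core outside the naming rule, and uncalled genes given for contrast, were chosen after their values were seen.

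**Figure D2:**
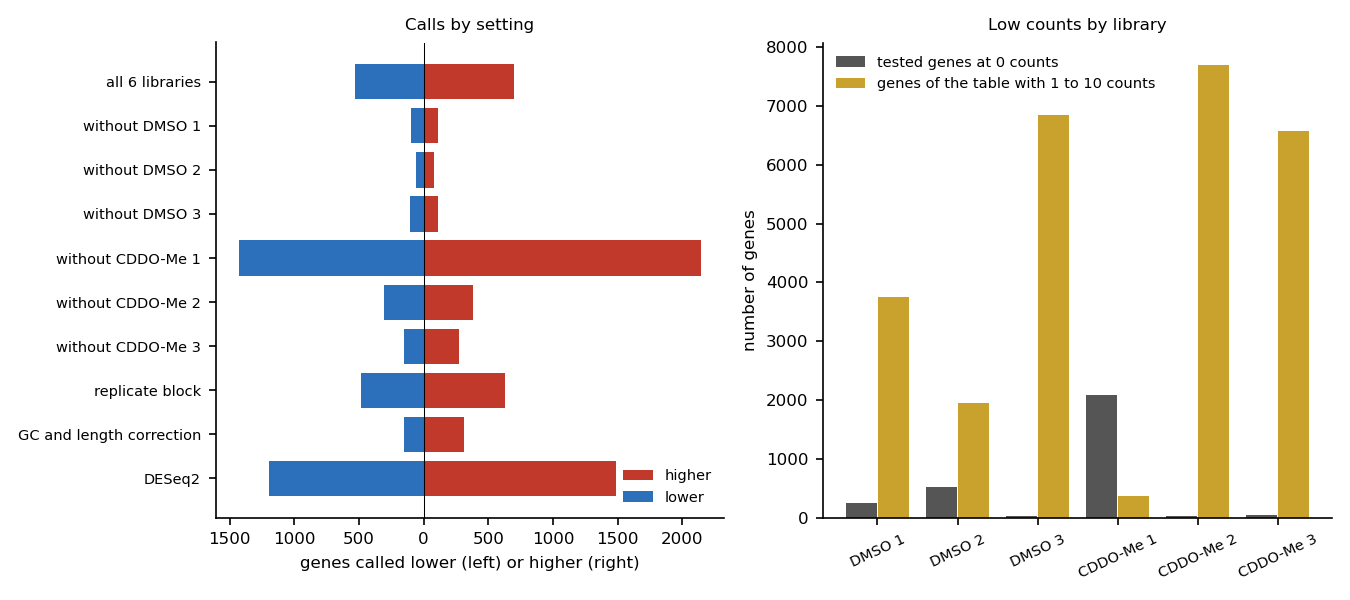
The left panel gives the number of genes called lower (blue, to the left) and higher (red, to the right) with all 6 libraries, without each library, and in 3 alternative fits. The right panel gives, for each library, the tested genes with 0 counts (grey) and the genes of the table with 1 to 10 counts (yellow); CDDO-Me 1 has 2083 and 371 of them.

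The cells carried the markers of their label. The summed level of 10 keratinocyte markers was 15982 to 17325 CPM with DMSO and 19659 to 21969 CPM under CDDO-Me, with no overlap. Markers of other cell types were low in both groups. The 9 fibroblast markers summed to 8.47 to 11.8 CPM with DMSO and 10.3 to 13.1 CPM under CDDO-Me, with COL3A1, DCN and LUM at 0 in all 6 libraries. The 7 melanocyte markers summed to 5.03 to 9.84 and 7.06 to 7.83 CPM with TYR at 0, the 9 immune markers to 1.15 to 2.27 and 0.684 to 1.16 CPM with CD3D, MS4A1 and CD207 at 0, and the 7 endothelial markers to 2.03 to 3.31 and 0.125 to 1.41 CPM with PECAM1 at 0. None of the 8 tested markers of these other types was called. In bulk RNA, fewer cells of a kind and less RNA per cell cannot be told apart, and this holds for every result below.

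The reference response came from the NRF2 targets, of which 27 of 36 tested rose and none fell, and their median log2 fold change was 1.14. The count was 17 to 31 when a library was left out and 30 with the GC correction. HMOX1, the enzyme that breaks down heme (chromosome 22, 35380361 to 35394214 in hg38), stood at 9.41, 10.1 and 14.1 CPM in DMSO 1 to 3 and at 364, 375 and 355 CPM in CDDO-Me 1 to 3. Every CDDO-Me library was above every DMSO library, and the log2 fold change was 5.02 ± 0.19 (SE; adjusted p = 1.39e-05). AKR1C1, an aldo-keto reductase (chromosome 10, 4963253 to 5107522), stood at 36.9, 34.5 and 44.2 CPM in DMSO libraries and 638, 949 and 835 CPM under CDDO-Me, a log2 fold change of 4.38 ± 0.19 (SE; adjusted p = 2.97e-05). Its paralogs AKR1C2 and AKR1C3 overlap it and also rose, so the share of each is uncertain. AKR1B10, a related reductase, rose by 2.63 and TXNRD1, the thioredoxin reductase, by 2.11 on the log2 scale. GCLM, the modifier subunit of the enzyme that starts glutathione synthesis, stood at 73.1, 74 and 69.4 CPM in DMSO libraries and 192, 234 and 182 CPM under CDDO-Me (log2 fold change 1.49 ± 0.13 (SE; adjusted p = 8.67e-04)).

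The letters TGACNNNGC of the antioxidant response element, sought on both strands in the 250 bases before each start site, were in 1640 of 10272 tested genes with a RefSeq promoter (15.97%). They were in 8 of 26 NRF2 targets (30.8%), in 94 of 528 genes called higher (17.8%) and in 65 of 372 called lower (17.5%). The share was not particular to NRF2 targets. The letters were in 4 of 12 genes of retinoid uptake and metabolism (33.3%) and 2 of 6 retinoic acid receptors and response genes (33.3%). They were also in 8 of 32 interferon-stimulated genes (25%). Windows from TXNRD1 and GCLM are shown as examples of listed targets that rose, from RefSeq (GRCh38.p14), 5′ to 3′ along the gene and ending at the base before the start site, with the match in capitals. In TXNRD1 (chr12:104215659-104215778, plus strand) the match begins 99 bases before the start site, and in GCLM (chr1:93909431-93909550, minus strand) 34 bases before it, where it reads on the opposite strand.
TXNRD1: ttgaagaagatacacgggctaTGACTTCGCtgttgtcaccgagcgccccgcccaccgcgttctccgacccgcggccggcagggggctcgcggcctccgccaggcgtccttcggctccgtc
GCLM: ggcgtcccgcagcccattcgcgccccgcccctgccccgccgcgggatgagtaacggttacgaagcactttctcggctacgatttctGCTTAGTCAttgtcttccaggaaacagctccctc

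Outside the list, several rises were as large as those of NRF2 targets. LUCAT1, a long non-coding RNA named for its link to lung cancer, stood at 1.36, 1.61 and 0.693 CPM in DMSO libraries and 34.5, 33.5 and 24.3 CPM under CDDO-Me, without overlap (log2 fold change 4.65 ± 0.34 (SE; adjusted p = 3.66e-04)). HKDC1, a hexokinase family member, stood at 1.86, 1.09 and 2.33 CPM in DMSO and 34.1, 25.5 and 26.1 CPM in CDDO-Me libraries (log2 fold change 4.02 ± 0.31 (SE; adjusted p = 4.58e-04)). The antisense gene RP11-227H15.4 overlaps HKDC1 and also rose, and with no strand setting given, their reads cannot be told apart. CYP4F11 and CYP4F3, fatty acid hydroxylases of the cytochrome P450 family, rose by 2.87 and 2.42 on the log2 scale. BACH1, the repressor that competes with NRF2 for its binding sites, stood at 12, 14.1 and 12.4 CPM in DMSO libraries and 42.4, 49.9 and 43.8 CPM under CDDO-Me (log2 fold change 1.82 ± 0.17 (SE; adjusted p = 8.95e-04)).

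Genes that take up and metabolise retinoids fell sharply in a few members. Of 15 tested genes of retinoid uptake and metabolism 4 fell and 1 rose (median log2 fold change -0.26, and -0.40 with the GC correction), and 3 to 5 fell when a library was left out. STRA6, the membrane receptor that carries retinol into the cell (chromosome 15, 74179466 to 74212267), stood at 15.5, 10.5 and 8.7 CPM in DMSO 1 to 3 and at 0, 0.206 and 0.0428 CPM in CDDO-Me 1 to 3. The CDDO-Me values rest on deposited counts of 0, 6 and 1 (the 0 in CDDO-Me 1), all below the lowest DMSO library, and the fitted log2 fold change of -7.04 ± 0.75 (SE; adjusted p = 0.0021) depends on so few reads. DHRS3, the reductase that turns retinaldehyde back into retinol (chromosome 1, 12567910 to 12617731), stood at 96, 93.5 and 87.7 CPM in DMSO libraries and 3.89, 8.41 and 9.88 CPM under CDDO-Me. All CDDO-Me libraries were lower, and the log2 fold change was -3.65 ± 0.32 (SE; adjusted p = 6.84e-04). ALDH1A3, which makes retinoic acid from retinaldehyde (chromosome 15, 100877714 to 100916626), stood at 146, 151 and 152 CPM in DMSO libraries and 59.5, 59.9 and 61.1 CPM under CDDO-Me (log2 fold change -1.32 ± 0.11 (SE; adjusted p = 6.62e-04)), and its replicates lay close together in both groups.

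The retinoic acid hydroxylase CYP26A1 stood at 2.52, 0.607 and 1.45 CPM with DMSO and was listed at 0 in all 3 CDDO-Me libraries, where the 0 of CDDO-Me 1 carries the doubt given above. Against a floor of 3 counts in CDDO-Me 3, the shallowest library (0.128 CPM), it was at least 11.9-fold lower. Its call (adjusted p = 0.0339) ended in 5 of the 6 fits without a library, with adjusted p = 0.169, 0.106, 0.124, 0.0645 and 0.0759 when DMSO 1, DMSO 2, DMSO 3, CDDO-Me 2 and CDDO-Me 3 were left out, and with the GC correction (0.0505). SDR16C5, an epidermal retinol dehydrogenase, was the member that rose, from 5.94, 9.84 and 11.3 CPM to 19.9, 25.8 and 18.6 CPM; that call held only without CDDO-Me 1 and ended otherwise, with adjusted p = 0.111, 0.128, 0.072, 0.0775 and 0.0697 when DMSO 1, DMSO 2, DMSO 3, CDDO-Me 2 and CDDO-Me 3 were left out. The cellular binding protein gene CRABP2 (log2 fold change -0.72, adjusted p = 0.303) and the retinol acyltransferase gene LRAT (0.10, 0.954) did not pass.

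Of 10 tested retinoic acid receptors and response genes, 3 fell and none rose (median -0.25, and 0.03 with the GC correction). ELF3, an ETS factor of epithelial differentiation (chromosome 1, 202007945 to 202017188), stood at 25.4, 16.1 and 20.4 CPM in DMSO libraries and 0.721, 0.687 and 0.299 CPM under CDDO-Me, a log2 fold change of -5.15 ± 0.37 (SE; adjusted p = 3.46e-04). KRT15, a keratin of basal and hair follicle stem cells (chromosome 17, 41513743 to 41522529), stood at 442, 282 and 421 CPM in DMSO libraries and 48.4, 47.2 and 50.3 CPM under CDDO-Me (log2 fold change -2.98 ± 0.17 (SE; adjusted p = 1.24e-04)). The 3 CDDO-Me libraries lay within a few CPM of each other, far below the lowest DMSO library. RARG, the main retinoic acid receptor of epidermis, fell by 0.87 (log2 scale; adjusted p = 0.00662). That call ended at 0.0593 when DMSO 2 was left out and at 0.0501 with the GC correction. RARA, a further receptor, had an estimate of -0.02 (log2 scale; adjusted p = 0.946). The direct repeat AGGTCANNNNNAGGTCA bound by these receptors was in none of the 10272 promoters searched, which says only that these letters are absent from the windows.

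In a list of simple epithelial keratins 6 of 7 tested members fell, against 3.39% called lower among all genes, and none rose (median log2 fold change -1.01). The number called was 3 to 6 when a library was left out and 3 with the GC correction. The list was wider than its name, as it also held KRT81, a hair keratin, and KRT80. Both fell, but neither was in the core. The KRT81 call ended without DMSO 1, DMSO 2 or DMSO 3 (adjusted p = 0.0912, 0.0695 and 0.072). When a library was left out, the KRT80 call held only without CDDO-Me 1. Their values with the GC correction are not given here. KRT19 stood at 217, 181 and 190.2 CPM in DMSO libraries and 74.4, 57.1 and 60.2 CPM under CDDO-Me (log2 fold change -1.62 ± 0.14 (SE; adjusted p = 6.84e-04)), and KRT7 at 1439, 1488 and 1272 CPM in DMSO and 633, 432 and 539.6 CPM in CDDO-Me libraries (log2 fold change -1.40 ± 0.14 (SE; adjusted p = 0.00159)). Groups did not overlap for either gene. KRT18 and its partner KRT8, whose annotated spans overlap, fell by 0.81 (adjusted p = 0.00342) and 0.77 (adjusted p = 0.011) on the log2 scale. With the GC correction their adjusted p were 0.143 and 0.112, and the KRT8 call also ended with adjusted p = 0.0599 and 0.086 when DMSO 1 and DMSO 2 were left out. Not among these 6 was KRT13, a keratin of mucosal suprabasal cells. It stood at 173, 56.9 and 119.7 CPM in DMSO libraries and 19.5, 17.1 and 20.1 CPM under CDDO-Me. It varied widely among the DMSO libraries and little among the CDDO-Me libraries, and its log2 fold change was -2.62 ± 0.34 (SE; adjusted p = 0.0052).

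Among 25 tested suprabasal differentiation genes 5 fell and none rose, with a median of -0.51. The fall of the list was not stable: 1 to 8 fell when a library was left out (1 without DMSO 2 and 8 without CDDO-Me 1), and 2 with the GC correction, where the median was -0.01. The mucosal suprabasal keratin KRT13, given above, was in the core. The filaggrin gene FLG, the precursor of the granular layer's filament-bundling protein, fell by 1.06 in log2 units (adjusted p = 0.0266), but its adjusted p was 0.111, 0.137, 0.0645 and 0.0706 when DMSO 1, DMSO 2, DMSO 3 and CDDO-Me 3 were left out. KRT1 and KRT10, the keratin pair of suprabasal cells, had log2 fold changes of 0.54 (adjusted p = 0.722) and 0.17 (adjusted p = 0.715), and KRT1 ran from 7.56 to 103 CPM among the DMSO libraries alone. Of 5 keratins induced in stressed epidermis 2 rose (median 0.66), KRT16 and KRT17, and neither call was in the core. KRT16 stood at 149.9, 53.2 and 82.7 CPM in DMSO libraries and 377, 237 and 258 CPM under CDDO-Me, with adjusted p = 0.0271, which became 0.101, 0.108 and 0.0614 when DMSO 2, DMSO 3 and CDDO-Me 3 were left out.

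Genes of the adhesion apparatus of basal cells rose in part. Of 18 tested genes of the hemidesmosome and basement membrane 8 rose, against 4.42% called higher among all genes, and none fell. The median log2 fold change was 0.41, with 13 estimates above 0 and 5 below. The number was 4 without DMSO 1, DMSO 2, DMSO 3 or CDDO-Me 3, 9 without CDDO-Me 1 or CDDO-Me 2, and 8 with the GC correction. ITGA6, the integrin subunit that binds laminin-332 in hemidesmosomes (chromosome 2, 172427354 to 172506282), stood at 301, 306 and 289 CPM in DMSO 1 to 3 and at 943, 1214 and 882 CPM in CDDO-Me 1 to 3. The lowest CDDO-Me library was above the highest DMSO library, and the log2 fold change was 1.76 ± 0.14 (SE; adjusted p = 5.37e-04). DST, whose epithelial product is the plakin that ties keratins to the hemidesmosome (chromosome 6, 56457987 to 56954628), stood at 83.1, 70.9 and 82.3 CPM in DMSO libraries and 264, 383 and 320.4 CPM under CDDO-Me (log2 fold change 2.03 ± 0.16 (SE; adjusted p = 4.93e-04)).

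The laminin-332 chain LAMA3 stood at 1055, 1161 and 1239.8 CPM in DMSO libraries and 2028, 2047 and 2237 CPM under CDDO-Me, with no overlap (log2 fold change 0.86 ± 0.10 (SE; adjusted p = 0.0031)). Another chain, LAMB3, did not pass (log2 fold change 0.47, adjusted p = 0.0541). The partner subunit ITGB4 rose by 0.62 in log2 units (adjusted p = 0.038), but with adjusted p = 0.124, 0.15, 0.156 and 0.0943 when DMSO 1, DMSO 2, DMSO 3 and CDDO-Me 3 were left out. COL7A1, the anchoring fibril collagen, rose by 0.91 (adjusted p = 0.0181), with 0.0912, 0.0995, 0.0864 and 0.0588 when DMSO 1, DMSO 2, DMSO 3 and CDDO-Me 3 were left out. Basement membrane genes that do not belong to this apparatus, COL4A1 (-0.18, adjusted p = 0.504) and LAMC1 (0.11, adjusted p = 0.519), did not pass. Basal keratins did not move together, and of 4 tested genes of basal keratins and p63 1 rose and 1 fell. KRT5 rose by 0.38 (log2 scale, adjusted p = 0.019) and its call ended with adjusted p = 0.0867, 0.13, 0.0814 and 0.081 when DMSO 1, DMSO 2, DMSO 3 and CDDO-Me 3 were left out, and KRT14 had 0.30 (adjusted p = 0.0865). The basal keratin KRT15, given above with the retinoic acid response genes, fell by far more than KRT5 rose.

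**Figure D3:**
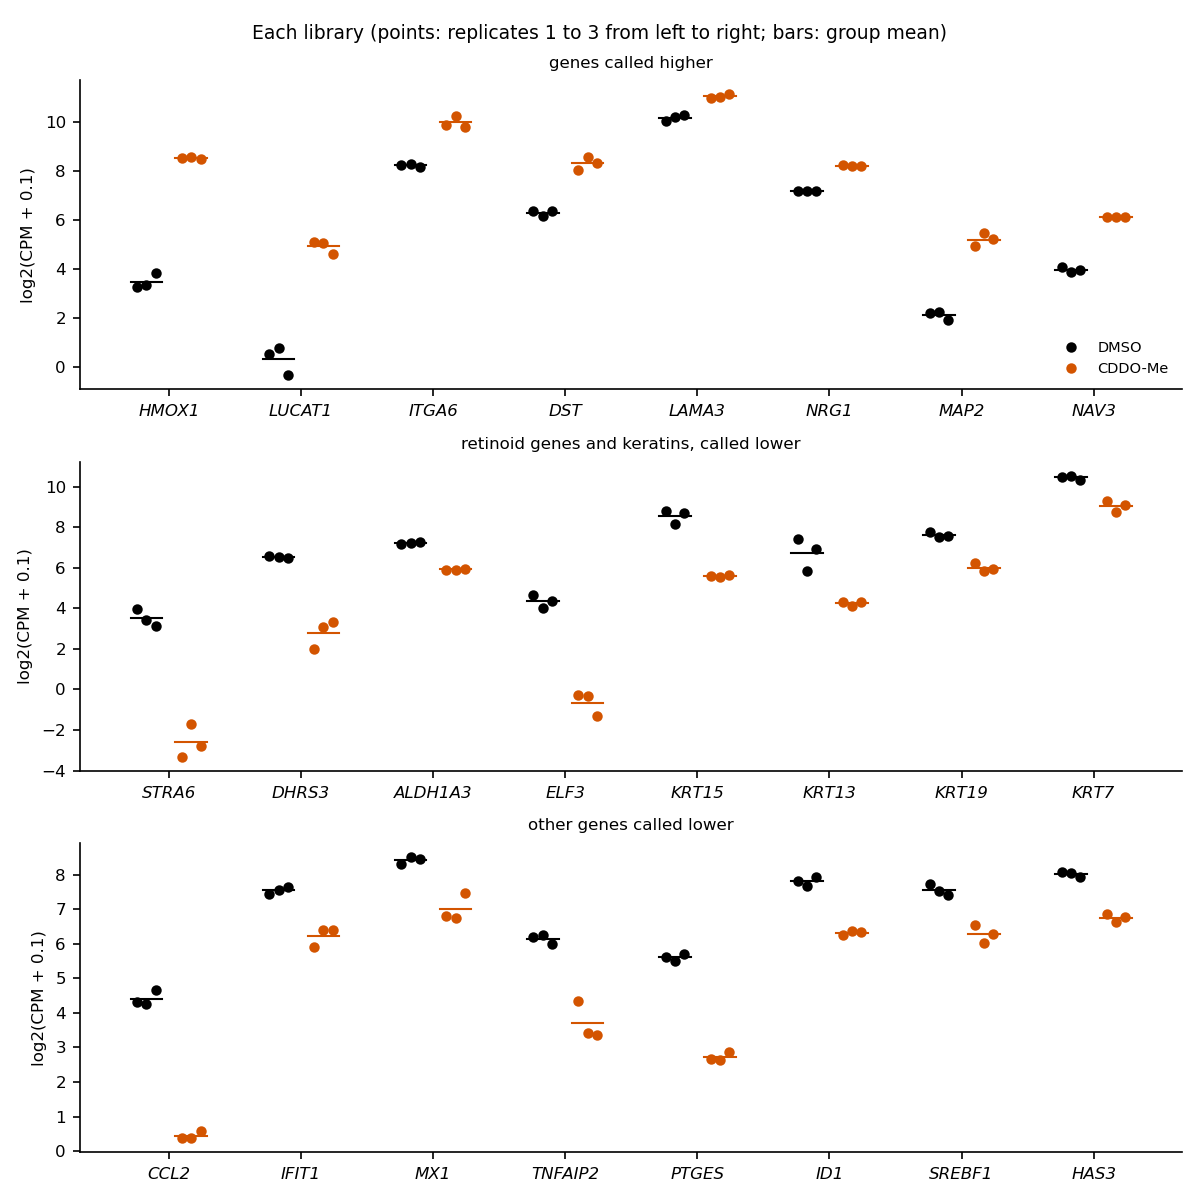
Points show log2(CPM + 0.1) of 24 called genes in each of the 3 DMSO (black) and 3 CDDO-Me (orange) libraries, and short lines the group means. For every gene drawn the groups do not overlap, as holds for all called genes. STRA6 runs from 8.70 to 15.5 CPM with DMSO and from 0 to 0.206 CPM with CDDO-Me.

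Matrix and migration genes rose in part. Of 20 migration integrins and provisional matrix genes 4 rose, against 4.42% of all genes, and none fell (median 0.22). The number was 1 without DMSO 1 and 6 without CDDO-Me 2, and without CDDO-Me 1 there were 4 higher and 2 lower. THBS1, a matrix glycoprotein released at wounds, was the member in the core. It stood at 1300.0, 1587 and 1273 CPM in DMSO libraries and 3642, 2497 and 2974 CPM under CDDO-Me (log2 fold change 1.12 ± 0.15 (SE; adjusted p = 0.00536)). Of 20 proteases and inhibitors of the matrix and plasminogen system 7 rose and 1 fell (median 0.46), with 1 to 9 called higher when a library was left out, the fewest without DMSO 2. SERPINE2, an inhibitor of thrombin and plasminogen activators, stood at 71.4, 69.6 and 80.9 CPM in DMSO libraries and 201, 311 and 261 CPM under CDDO-Me (log2 fold change 1.80 ± 0.17 (SE; adjusted p = 0.00121)). Outside this list, F3, the tissue factor that starts coagulation, rose from 218, 228 and 237 CPM to 394, 506 and 445 CPM (log2 fold change 0.97 ± 0.13 (SE; adjusted p = 0.00501)). Within it, the collagenase MMP1 rose from 6.77, 4.77 and 4.88 CPM to 15.7, 24.9 and 15.3 CPM (adjusted p = 0.0103), with 0.0725 and 0.0553 when DMSO 2 and DMSO 3 were left out. Falling beside these were HAS3, a hyaluronan synthase (269, 267 and 244 CPM in DMSO libraries, 116, 98.4 and 109.5 CPM under CDDO-Me), and ADAM19, a sheddase (499, 503 and 456 CPM in DMSO libraries, 179, 119 and 147 CPM under CDDO-Me). Their log2 fold changes were -1.28 ± 0.11 (SE; adjusted p = 6.84e-04) and -1.72 ± 0.15 (SE; adjusted p = 6.85e-04).

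Cell junction genes moved in both directions. Of 18 genes of desmosomes and adherens junctions 3 rose and 2 fell (median -0.18), and of 17 tight junction genes 1 rose and 2 fell (median -0.16); with the GC correction none of the 35 was called. CLDN7, a claudin, stood at 353, 341 and 365 CPM in DMSO libraries and 207, 183 and 205 CPM under CDDO-Me, a log2 fold change of -0.84 ± 0.10 (SE; adjusted p = 0.00376), with adjusted p = 0.195 under the correction. The keratinocyte cadherin CDH3 fell by 0.71 (adjusted p = 0.00633), with 0.0567 when DMSO 2 was left out and 0.0882 under the correction.

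Interferon-stimulated genes, the antiviral genes that cells switch on through JAK, STAT and IRF9, were lower. Of 40 tested 21 fell, against 3.39% called lower among all genes, and none rose. The median log2 fold change was -0.80. Lower estimates were seen for 36 of the 40. Their summed level was 4813, 5396 and 5571 CPM in DMSO 1 to 3 and 2601, 2827 and 3309 CPM in CDDO-Me 1 to 3, with no overlap. The number that fell was 15, 8 and 11 without DMSO 1, 2 and 3, and 28, 20 and 17 without CDDO-Me 1, 2 and 3. Without CDDO-Me 1, 3 members were also called higher, against 13.0% of all genes. With the GC correction 18 fell and the median was -0.80. The median of the suprabasal list, by contrast, went to -0.01 under the same correction.

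Members that block viral replication were among the core. IFIT1, which binds viral RNA (chromosome 10, 89392546 to 89406486), stood at 174, 188 and 199.9 CPM in DMSO libraries and 59.9, 85.4 and 84 CPM under CDDO-Me (log2 fold change -1.30 ± 0.16 (SE; adjusted p = 0.00435)). Its neighbour IFIT3 (chromosome 10, 89327894 to 89340971) stood at 249, 337 and 264 CPM in DMSO libraries and 94.5, 102 and 112 CPM under CDDO-Me (log2 fold change -1.47 ± 0.15 (SE; adjusted p = 0.00175)). The groups were apart for both. MX1, a GTPase against influenza viruses, stood at 316, 366 and 352 CPM in DMSO and 112, 109 and 178 CPM in CDDO-Me libraries (log2 fold change -1.38 ± 0.19 (SE; adjusted p = 0.00662)). OAS1 and OASL, of the family of enzymes that sense double-stranded RNA, fell by 1.11 and 1.69 on the log2 scale.

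Members of the ISG15 pathway, which attaches a ubiquitin-like protein to others, fell as well. ISG15 itself (chromosome 1, 1001138 to 1014541) stood at 279, 306 and 327 CPM in DMSO libraries and 115, 98.8 and 157 CPM under CDDO-Me, a log2 fold change of -1.31 ± 0.17 (SE; adjusted p = 0.00536). Its conjugating enzyme UBE2L6 stood at 176, 187 and 225 CPM in DMSO and 77.3, 85.6 and 107 CPM in CDDO-Me libraries (log2 fold change -1.13 ± 0.16 (SE; adjusted p = 0.00671)). The protease that removes it, USP18, fell by 1.29 (adjusted p = 0.00877), with 0.0695 when DMSO 2 was left out and 0.12 with the GC correction. CMPK2, a nucleotide kinase, fell by 1.42 on the log2 scale, and its span overlaps RSAD2, which did not pass (-0.63, adjusted p = 0.0645). The 4 members with a higher estimate were IFI44, DDX58, SAMD9L and SAMD9, and none passed with all 6 libraries; without CDDO-Me 1 the calls higher were DDX58, SAMD9L and SAMD9. SAMD9 ran from 4.98 to 18.7 CPM with DMSO and from 11.1 to 79.7 CPM with CDDO-Me, so the groups overlapped.

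**Figure D4:**
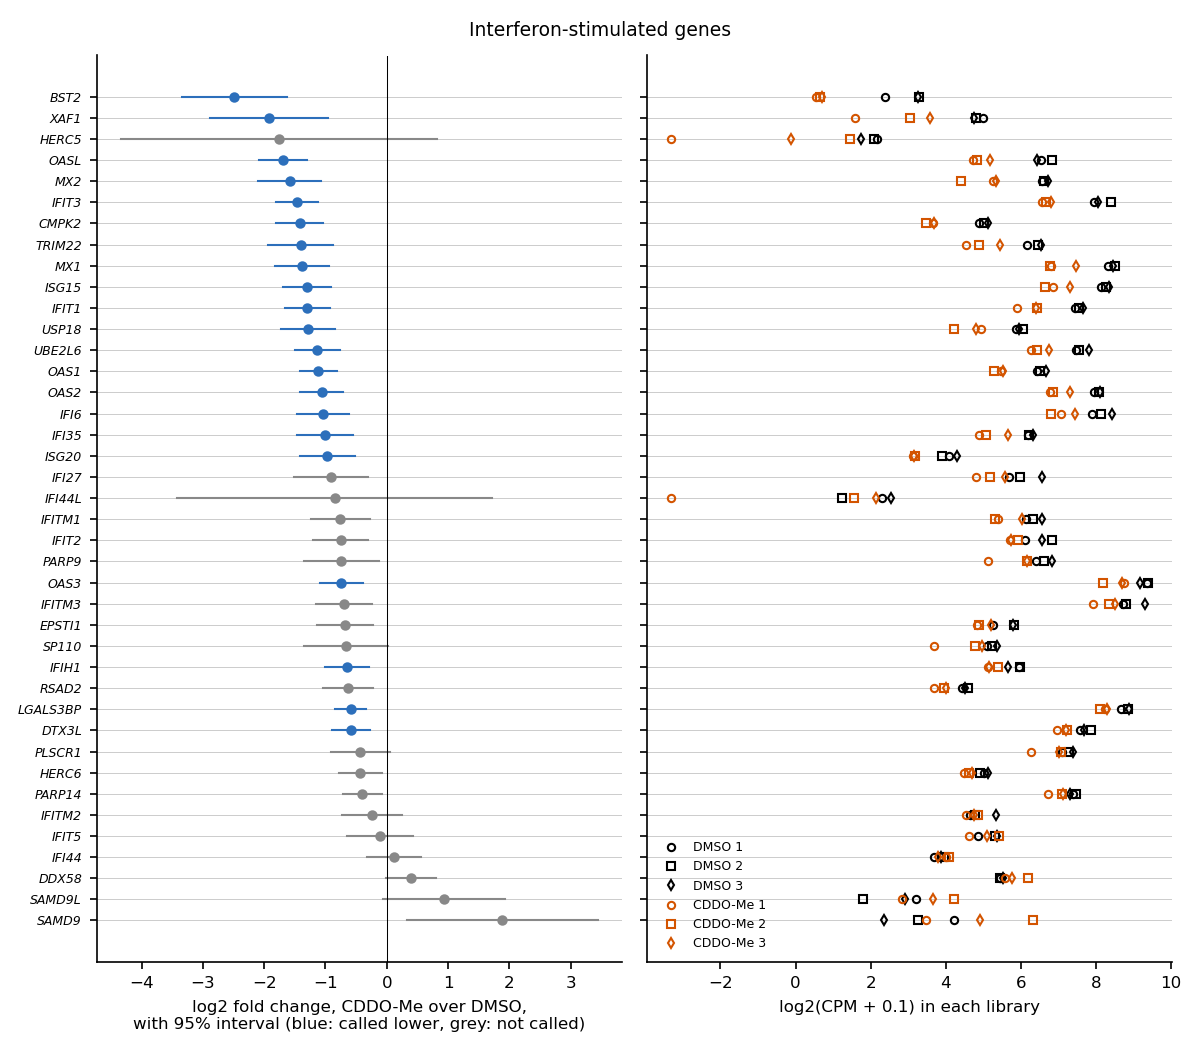
The left panel gives the edgeR log2 fold change of CDDO-Me over DMSO with its 95% interval for 40 interferon-stimulated genes, ordered by the estimate, with the 21 called lower in blue. The right panel gives log2(CPM + 0.1) of the same genes in each library, with the orange CDDO-Me symbols to the left of the black DMSO symbols for most genes from BST2 to DTX3L.

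The interferon-stimulated response element, sought as GAAANNGAAA on both strands in the 250 bases before the start site, was in 345 of 10272 tested genes with a promoter (3.36%). It was in 26 of 372 genes called lower (6.99%) and 20 of 528 called higher (3.79%). Of 32 interferon-stimulated genes with a promoter 23 held it (71.9%), and of the 16 among them that were called lower 10 did (62.5%). The windows below belong to genes of the core and are shown since their matches come in pairs, from RefSeq (GRCh38.p14), 5′ to 3′ along the gene and ending at the base before the start site. Capitals mark the matches. In IFIT1 (chr10:89392463-89392622, plus strand) they begin 116 and 103 bases before the start site, in IFIT3 at its downstream start site (chr10:89332369-89332528, plus strand) 94 and 51 bases before it, and in ISG15 (chr1:1013337-1013496, plus strand) 113 and 107 bases before it, where they overlap.
IFIT1: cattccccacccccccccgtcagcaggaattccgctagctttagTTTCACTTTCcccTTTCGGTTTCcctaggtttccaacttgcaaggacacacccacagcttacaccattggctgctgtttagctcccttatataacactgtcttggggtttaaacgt
IFIT3: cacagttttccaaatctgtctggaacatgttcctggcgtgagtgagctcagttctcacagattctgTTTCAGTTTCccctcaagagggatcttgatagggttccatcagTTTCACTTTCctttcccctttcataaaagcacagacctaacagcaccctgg
ISG15: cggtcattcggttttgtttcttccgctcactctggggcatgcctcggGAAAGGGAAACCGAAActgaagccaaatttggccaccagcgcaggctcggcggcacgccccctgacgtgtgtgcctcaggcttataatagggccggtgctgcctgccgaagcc

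The signalling chain upstream of these genes changed in fewer members. Of 20 tested genes of interferon receptors, kinases, STAT and IRF factors 2 fell and 1 rose (median -0.18). IRF1, a factor of the interferon response, stood at 56.6, 56.3 and 52.9 CPM in DMSO libraries and 24.3, 27.1 and 30.02 CPM under CDDO-Me (log2 fold change -1.03 ± 0.14 (SE; adjusted p = 0.00671)), and its adjusted p was 0.0566 when DMSO 2 was left out. STAT2 (log2 fold change -0.27, adjusted p = 0.22) and JAK1 (0.26, 0.247) did not pass. SOCS1, a feedback inhibitor of JAK kinases, rose from 2.93, 4.25 and 2.96 CPM to 11.8, 7.9 and 6.76 CPM (adjusted p = 0.0405), a call that ended with adjusted p = 0.154, 0.109, 0.15, 0.0729 and 0.068 when DMSO 1, DMSO 2, DMSO 3, CDDO-Me 2 and CDDO-Me 3 were left out. Of 18 genes of antigen presentation on MHC class I 4 fell (median -0.42), and none was called with the GC correction or without DMSO 1, DMSO 2 or DMSO 3; without CDDO-Me 1 there were 9 lower and 1 higher.

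Inflammatory mediators fell in a few strong cases. Of 27 tested chemokines and cytokines 4 fell, against 3.39% of all genes, and none rose (median -0.24). The number that fell was 1 without DMSO 2 or DMSO 3 and 2 with the GC correction, and without CDDO-Me 1 there were 7 lower and 3 higher. CCL2, the chemokine that draws monocytes (chromosome 17, 34255218 to 34257203), stood at 20.01, 18.9 and 25.4 CPM in DMSO libraries and 1.19, 1.2 and 1.41 CPM under CDDO-Me. All CDDO-Me libraries lay far below the lowest DMSO library, and the log2 fold change was -4.09 ± 0.25 (SE; adjusted p = 1.24e-04). PTGES, the synthase of prostaglandin E2 (chromosome 9, 129738331 to 129753047), stood at 49.3, 44.9 and 51.9 CPM in DMSO libraries and 6.24, 6.11 and 7.14 CPM under CDDO-Me (log2 fold change -2.91 ± 0.17 (SE; adjusted p = 1.24e-04)). PTGS1, the cyclooxygenase that supplies its substrate, rose from 31.9, 30.5 and 35.9 CPM to 68.5, 73 and 78.4 CPM (log2 fold change 1.16 ± 0.14 (SE; adjusted p = 0.00344)).

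Of 24 tested NF-kB subunits and feedback genes 1 fell and none rose, with a median of -0.25; without CDDO-Me 1 there were 2 lower and 3 higher. The gene that fell was TNFAIP2, a gene induced by tumour necrosis factor, at 73.3, 76 and 63.4 CPM in DMSO libraries and 20.2, 10.5 and 10.3 CPM under CDDO-Me (log2 fold change -2.38 ± 0.27 (SE; adjusted p = 0.00256)). IL1B stood at 44.6, 51.2 and 49.8 CPM in DMSO libraries and 13.8, 25.1 and 27.6 CPM under CDDO-Me; its adjusted p was 0.033, and 0.107, 0.137, 0.104 and 0.0564 when DMSO 1, DMSO 2, DMSO 3 and CDDO-Me 3 were left out. In the complement list 1 of 12 rose and 2 fell, and 5 rose without CDDO-Me 1. CD55, which shields cells from complement, was the member that rose, from 7.14, 5.83 and 8 CPM to 18.2, 30.6 and 25.2 CPM (log2 fold change 1.82 ± 0.25 (SE; adjusted p = 0.00639)).

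Of 24 tested genes of the EGF receptor family and its feedback 7 rose, against 4.42% of all genes, and none fell (median 0.44). When a library was left out 1 to 8 rose, the fewest without DMSO 1 and the most without CDDO-Me 1 (against 13.0% of all genes in that fit), and 6 rose with the GC correction. DUSP4, a phosphatase that ERK induces and that acts on it, stood at 79.9, 79.5 and 68.9 CPM in DMSO libraries and 171, 135 and 162 CPM under CDDO-Me (log2 fold change 1.03 ± 0.13 (SE; adjusted p = 0.00435)). EPGN, an EGF receptor ligand, rose from 0.289, 0.729 and 0.221 CPM to 4.92, 10.4 and 4.7 CPM (adjusted p = 0.0103), with 0.0655 when DMSO 1 was left out. Its ligand relative AREG rose from 6.52, 9.56 and 9.86 CPM to 16.1, 39.4 and 30.9 CPM (adjusted p = 0.0237), with 0.109, 0.101, 0.073 and 0.0673 when DMSO 1, DMSO 2, DMSO 3 and CDDO-Me 3 were left out.

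Among 26 tested growth and angiogenic factors 6 rose and 2 fell, against 4.42% and 3.39% of all genes (median 0.04). Without DMSO 1 or DMSO 2 there were 2 higher and none lower, and without CDDO-Me 1 there were 7 higher and 3 lower. NRG1, a ligand of ERBB3 and ERBB4, stood at 143, 144 and 145 CPM in DMSO libraries and 299, 293 and 297 CPM under CDDO-Me. Replicates lay within a few CPM of each other in both groups, and the log2 fold change was 1.03 ± 0.10 (SE; adjusted p = 0.00103). BMP4, a bone morphogenetic protein, stood at 7.01, 8.29 and 6.58 CPM in DMSO libraries and 29.4, 21.1 and 19.8 CPM under CDDO-Me (log2 fold change 1.67 ± 0.23 (SE; adjusted p = 0.0057)). BMP7, a further bone morphogenetic protein, was 1 of the 2 members that fell. When a library was left out its call held only without CDDO-Me 1, and it ended with the GC correction. Without DMSO 1, DMSO 2 and DMSO 3 its log2 fold change was -0.708, -0.859 and -0.812 (adjusted p = 0.143, 0.126 and 0.111). Outside this list, PTHLH, the parathyroid hormone related protein made by keratinocytes, rose from 137, 137 and 148 CPM to 376, 413 and 333 CPM (log2 fold change 1.41 ± 0.12 (SE; adjusted p = 6.84e-04)).

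Genes that BMP signalling is known to induce were among those that fell. Of 19 tested BMP and TGF-beta response genes 3 fell and none rose, with a median of 0.08, and the same number fell in 5 of the 6 fits without a library and with the GC correction (4 without CDDO-Me 2). Without CDDO-Me 1, 3 members were also called higher. ID1, an inhibitor of differentiation factors, stood at 228, 203 and 243 CPM in DMSO libraries and 75.9, 82.8 and 81.1 CPM under CDDO-Me (log2 fold change -1.49 ± 0.12 (SE; adjusted p = 4.93e-04)). ID3 stood at 185, 159 and 195 CPM in DMSO and 77.2, 91.5 and 90.6 CPM in CDDO-Me libraries (log2 fold change -1.06 ± 0.13 (SE; adjusted p = 0.00396)), and SMAD6, the inhibitory SMAD of the BMP branch, at 45.6, 34.7 and 37.3 CPM in DMSO and 15.4, 17.2 and 15.2 CPM in CDDO-Me libraries (log2 fold change -1.30 ± 0.17 (SE; adjusted p = 0.00501)). None of the groups overlapped for these genes. SMAD7 (-0.12, adjusted p = 0.693) and PMEPA1 (0.08, 0.819) did not pass.

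Of 17 tested targets and components of YAP and TEAD 6 rose, against 4.42% of all genes, and none fell (median 0.41), and 4 rose with the GC correction. The number was 1 without DMSO 1 or DMSO 3, and without CDDO-Me 1 there were 7 higher and 1 lower, against 13.0% and 8.63% of all genes. ANKRD1, a target of this pair, stood at 25.7, 35.1 and 34.7 CPM in DMSO libraries and 68.6, 90.8 and 88.4 CPM under CDDO-Me (log2 fold change 1.37 ± 0.19 (SE; adjusted p = 0.00591)). Of 8 tested genes of the aryl hydrocarbon receptor 1 rose and 1 fell. TIPARP, which represses that receptor, stood at 38.7, 39 and 36.3 CPM in DMSO libraries and 72.5, 97.2 and 77.3 CPM under CDDO-Me (log2 fold change 1.11 ± 0.15 (SE; adjusted p = 0.00662)). The member of that list that fell was CYP1A1, with a log2 fold change of -1.55 without DMSO 1 and also without DMSO 2. Its call ended in those fits, with adjusted p = 0.0653 and 0.0684. Of 14 Notch pathway genes 1 rose and 2 fell, none was called with the GC correction, and 5 fell without CDDO-Me 1.

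In the core, 81 of the 135 genes belonged to none of the lists. A group of them bind microtubules, and its members were put together after their values were seen, so it is a description. MAP2, a microtubule-associated protein known from dendrites, stood at 4.54, 4.64 and 3.69 CPM in DMSO libraries and 30.3, 43.7 and 37.2 CPM under CDDO-Me (log2 fold change 3.11 ± 0.22 (SE; adjusted p = 3.24e-04)). MAP1B, its relative in axons, stood at 3.63, 2.52 and 2.08 CPM in DMSO and 17.8, 20.4 and 23.9 CPM in CDDO-Me libraries (log2 fold change 2.92 ± 0.27 (SE; adjusted p = 9.87e-04)). NAV3, which binds growing microtubule ends, stood at 16.6, 14.8 and 15.5 CPM in DMSO and 69.9, 68.7 and 69.5 CPM in CDDO-Me libraries (log2 fold change 2.15 ± 0.14 (SE; adjusted p = 1.41e-04)), and CAMSAP2, which binds their minus ends, rose by 1.36 on the log2 scale. LPP, a protein of focal adhesions, rose by 1.26.

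Several genes named here, among them ELF3, ALDH1A3, ITGA6, IFIT1, IFIT3, SREBF1 and CLDN7, overlap another tested gene on the opposite strand, so reads from the overlap cannot be assigned without the strand setting. Further core genes outside the lists included membrane and metabolic proteins, also chosen after their values were seen. NT5E, the enzyme CD73 that makes adenosine, rose from 89, 85.7 and 90.0 CPM to 168, 260.0 and 206 CPM (log2 fold change 1.26 ± 0.17 (SE; adjusted p = 0.00546)), and IL7R, a cytokine receptor subunit, from 32.8, 34.6 and 31.3 CPM to 83.3, 125 and 96.5 CPM (log2 fold change 1.62 ± 0.18 (SE; adjusted p = 0.00231)). TRPV6, a calcium channel, fell from 15, 17.6 and 15.7 CPM to 4.23, 2.78 and 3.51 CPM, a log2 fold change of -2.21 ± 0.25 (SE; adjusted p = 0.00256). NGFR, the low-affinity neurotrophin receptor of basal keratinocytes, fell from 20.2, 14.3 and 15.7 CPM to 4.04, 5.56 and 5.39 CPM (log2 fold change -1.74 ± 0.25 (SE; adjusted p = 0.00674)). APOBEC3B, a cytidine deaminase, and GBP4, an interferon-induced GTPase, fell by 1.69 and 1.51 on the log2 scale, and EIF4EBP1, the translation repressor that mTORC1 controls, fell by 1.03 (adjusted p = 0.215 with the GC correction).

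SREBF1, the transcription factor of fatty acid synthesis, stood at 214, 187 and 172 CPM in DMSO libraries and 93.3, 64.5 and 77.5 CPM under CDDO-Me, a log2 fold change of -1.29 ± 0.15 (SE; adjusted p = 0.00342). Of 17 fatty acid synthesis genes it was the member that fell, while 2 rose (median -0.07). Of 26 cholesterol genes 1 rose and 2 fell (median -0.01), against 4.42% and 3.39% of all genes, and none of 17 genes of barrier lipids was called. Without CDDO-Me 1 there were 3 higher and 6 lower fatty acid genes, 6 higher and 6 lower cholesterol genes, and 6 higher and 1 lower barrier lipid genes, against 13.0% and 8.63% of all genes. In glycolysis and hypoxia 5 of 33 rose, against 4.42% of all genes, and none fell (median 0.02). The number was 1 without DMSO 2 or DMSO 3, and without CDDO-Me 1 there were 8 higher and 2 lower. SLC2A3, a high-affinity glucose transporter, was in the core at 7.71, 9.56 and 8.63 CPM in DMSO libraries and 23.5, 22.4 and 22 CPM under CDDO-Me (log2 fold change 1.38 ± 0.19 (SE; adjusted p = 0.00581)).

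Counts in the cell cycle and stress lists depended on the libraries and on the GC correction. Of 35 DNA replication genes 5 fell (median -0.20) and of 35 mitosis genes 7 rose (median 0.26), against none and 3 with the GC correction. Without CDDO-Me 1 the replication list had 11 lower and 3 higher, and the mitosis list 14 higher and 1 lower, in a fit where 13.0% of all genes were called higher and 8.63% lower. Without DMSO 2 neither list had a called gene. The heat shock list had 4 of 27 higher and the endoplasmic reticulum chaperone list 2 of 23 higher and 1 lower, and without CDDO-Me 1 these were 11, and 12 and 1. The proteasome list had 1 of 35 higher, and 9 without CDDO-Me 1; none was called with the GC correction. Of 24 p53 targets 6 rose, and none without DMSO 1, DMSO 2 or DMSO 3. Ribosome biogenesis had 5 of 30 lower and none with the GC correction, and 12 lower without CDDO-Me 1. No gene of these lists was in the core.

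Of 33 nuclear genes of oxidative phosphorylation 1 rose and 1 fell, shares near the 4.42% and 3.39% of all genes. Of 12 mitochondrially encoded genes 1 was called, and of 26 targets of ATF4 and amino acid supply 2 rose and 3 fell. Of 27 genes of autophagy and the lysosome 4 rose and 1 fell, of 16 circadian genes 1 rose and 2 fell, and of 7 antimicrobial protein genes none was called. Without any 1 DMSO library no autophagy or circadian gene was called. By gene class, 671 of 12851 protein-coding genes were called higher (5.22%) and 526 lower (4.09%). Of 696 long intergenic non-coding RNAs 13 were higher (1.87%), LUCAT1 among them, and 1 lower (0.144%). The shares of all genes were 4.42% and 3.39%. The classes were not matched for level, so their shares are not compared.

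**Figure D5:**
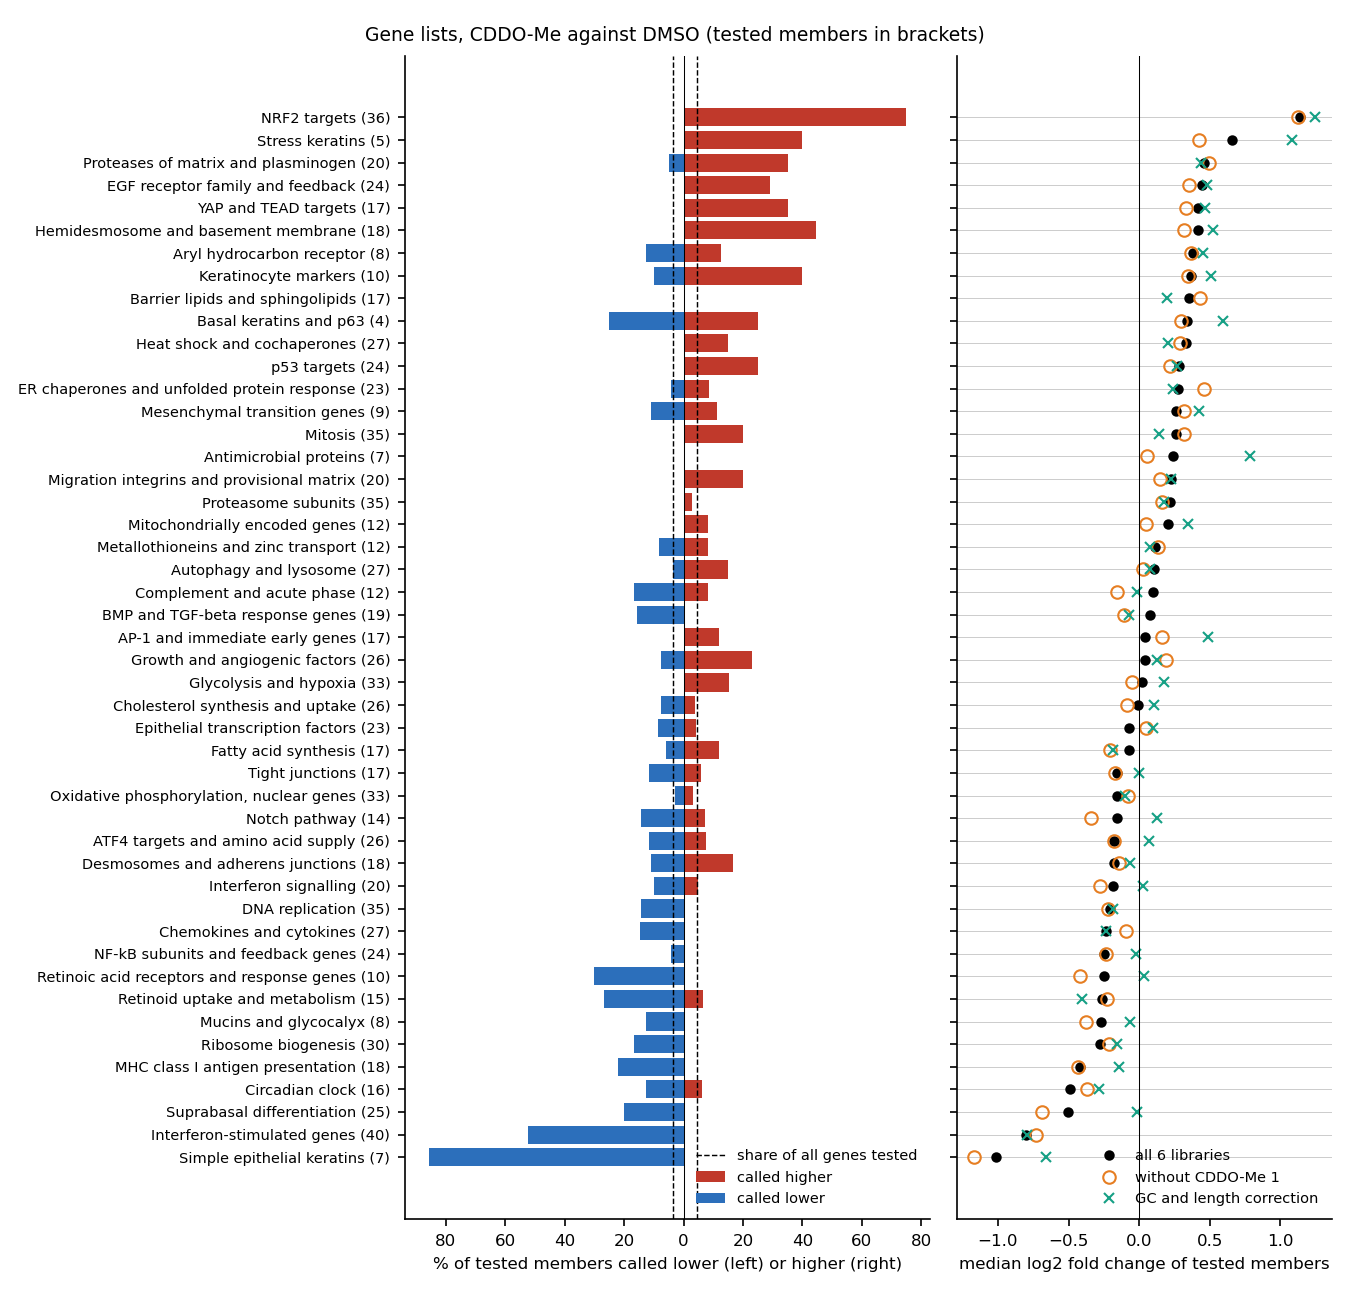
Bars give the percentage of each list's tested members called lower (blue, to the left) or higher (red, to the right), with the share of all tested genes as dashed lines, and lists ordered by their median. On the right, each list's median log2 fold change is given with all 6 libraries (black), without CDDO-Me 1 (orange) and with the GC and length correction (green). NRF2 targets stand at 1.14. The simple epithelial keratin list, which also holds KRT80 and KRT81, stands at -1.01, and the suprabasal list moves from -0.51 to -0.01 with the correction.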

How the data were processed

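RNA from HaCaT cells was sequenced in 9 libraries, of which the 3 DMSO and 3 CDDO-Me libraries were compared. Per the labels' protocols, total RNA came from a Qiagen RNEasy Plus Mini kit, alignment was to hg38 by STAR 2.5, and HTSeq 0.6.1 gave the counts. The annotation release and strand setting are not given in the sources used here. The deposited values are whole-number read counts per gene by the authors, and whether low counts were removed from the CDDO-Me 1 column is not given; the FPKM values of the authors, per the labels computed from gene length and counts, matched the counts within 0.1% for 100% of nonzero values and entered no test. Counted reads per library ran from 23383800 to 32942156, so a floor of 3 counts stands for 0.0911 to 0.128 CPM. Floors cover counting error only.

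Counts were tested with edgeR 4.0.16 (R 4.3.3; glmQLFit and glmQLFTest) after filterByExpr by group, with TMM scaling and Benjamini-Hochberg adjustment over 15773 genes. SE is the log2 fold change divided by the root of F. CPM are scaled to all counted reads. The GC and length correction set offsets from a spline with 5 degrees of freedom per library, with GC content from GENCODE 29 transcripts. The pipeline was tested on simulated counts.

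The comparison, the 52 gene lists (1024 symbols, all matched by deposited name) and the naming rule were chosen with earlier results of these data known. Named were the 20 largest rises and 20 largest falls among called genes whose mean reached 1 CPM and whose groups did not overlap, as many as 6 called members per list (the 2 of highest CPM if none was called), HMOX1, AKR1C1, STRA6 and ITGA6, and the 10 largest rises and 10 largest falls among protein-coding genes in no list. Not all of the 205 genes this gives are printed. Promoters are RefSeq's, GRCh38.p14. The alternatives, 18 in all, were DESeq2 1.42.0, voom with quality weights (limma 3.58.1), RLE and library-size scaling, no filter, a floor of 1 CPM in place of the filter, a test against a fold of 1.5, all 9 libraries, a replicate block, the GC and length correction with and without the block, and leaving out each library. A minimum of 10 counts in every library was added after CDDO-Me 1 was seen to hold few genes of low count.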

Additional observations from a re-analysis of the deposited data

How the results depend on the processing

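With all 6 libraries 1231 genes were called, 697 higher and 534 lower. RLE scaling, library-size scaling, a minimum of 1 CPM, all 9 libraries and at least 10 counts in every library kept these counts within 1.5 times. Without a filter on low counts 2386 were called (1527 higher, 859 lower), with voom and quality weights 3743 (2004 and 1739) and with DESeq2 2679 (1485 and 1194). With the GC and length correction 470 were called (315 and 155), with the replicate block and that correction 579 (383 and 196), and with a fold threshold of 1.5 120 (65 and 55). Leaving out 1 library gave 146 (without DMSO 2) to 3577 (without CDDO-Me 1) calls, 83 to 2147 higher and 63 to 1430 lower. Of the 205 named genes none reversed its direction in the alternatives that gave it a value, which were 197 genes for DESeq2, 201 for a minimum of 1 CPM, 183 for at least 10 counts in every library and all 205 for the others. Most of the 205 were named for their calls in these same 6 libraries, so the lack of reversals says little about stability. The cause of each shift was not tested.

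The labels give the groups the same replicate numbers. Same-numbered libraries deviated from their group means with correlations of 0.0170, -0.0726 and 0.103, so the numbers were not taken as a pairing. With a replicate block 1112 genes were called, 631 higher and 481 lower, and 958 of the 1231 calls were among them. Depth limits genes near the floor of 0.0911 to 0.128 CPM, such as STRA6 and CYP26A1 with CDDO-Me.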
